A study of Mus musculus with 4 samples.

Results

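The transforming growth factor beta (TGF-beta) pathway was examined in heart muscle cells through the genes of 3 ligands (Tgfb1, Tgfb2, Tgfb3), 3 receptors (Tgfbr1, Tgfbr2, Tgfbr3) and 4 Smad proteins (Smad2, Smad3, Smad4, Smad7). The members were chosen by gene name, and all 10 were found, each as a single row, among the 48432 gene rows of the table. Cardiomyocytes, the contractile cells of the heart, had been isolated from mice on a C57BL x FVB background by Langendorff perfusion, in which enzymes are passed through the coronary vessels, and their polyadenylated RNA was sequenced. The MHC group came from mice of the genotype labelled MHC, and the Rbfox2 OE group from mice labelled RbFox2, which overexpress RBFOX2, an RNA-binding regulator of splicing. Both groups had been fed doxycycline for 3 days. The labels do not give the promoter that drives the transgene, nor the age or sex of the animals, nor whether a library pooled animals. Each group had 2 libraries, 4 in all.

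TGF-beta ligands are secreted in a latent form, bound to their own propeptide and often to a latent TGF-beta binding protein in the matrix. Once released, a ligand dimer binds the type II receptor TGFBR2, which recruits and phosphorylates the type I receptor TGFBR1, and the co-receptor betaglycan (TGFBR3) helps to present TGF-beta 2 in particular. TGFBR1 phosphorylates SMAD2 and SMAD3, which enter the nucleus with the shared partner SMAD4 and regulate transcription, while SMAD7 is induced by the pathway and blocks the type I receptor. In the heart the pathway is best known for driving matrix production by fibroblasts, and cardiomyocytes carry its receptors as well.

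The authors' table gave 1 pooled FPKM value per gene and group (fragments per kilobase, relative to the mapped fragments of a library), with a lower and an upper bound whose level is not stated. There was thus no value per library, no spread between replicates and no test between the groups, and the depth in reads is unknown. A gene is called higher or lower below where the bounds of the groups did not overlap, and the size of a difference is log2 of Rbfox2 OE divided by MHC after adding 1 FPKM to both values, which understates the change of low genes. Rbfox2 itself, the check of the labels, stood at 14.7 FPKM in MHC, within bounds of 10.4 and 19.0, and 293 FPKM in Rbfox2 OE, within bounds of 214 and 373. Cardiomyocyte markers were abundant, with Tnni3, cardiac troponin I, at 7811 and 3866 FPKM, although Myh6 was listed at 0 in both groups because Cuffdiff made no estimate for it.

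Tgfb2 and Tgfbr2 were the 2 members called higher in Rbfox2 OE, and both also passed 2-fold. No member was called lower or fell by 2-fold, and the bounds of the other 8 overlapped between the groups. Over the 11697 genes whose mean over the groups reached 1 FPKM, which included all 10 members, 6.67% were called higher by their bounds and 9.33% lower. That split turned to 8.75% higher and 6.98% lower when the groups were rescaled without mitochondrial genes and the 10 most abundant genes, while Tgfb2 and Tgfbr2 stayed the 2 members called. With the values as deposited, a 2-fold difference was found for 17.0% of the compared genes, 6.97% being at least 2-fold higher, and 5.27% were higher by both criteria. The members' median log2 ratio was 0.33, beside -0.06 over the compared genes. On rescaling the medians were 0.47 for the members and 0.072 over the 11812 genes that then reached 1 FPKM. In bulk RNA of this kind, fewer cells of a type and less RNA per cell cannot be told apart, and with 10 members and 1 pooled value per group the count of 2 has no test.

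**Figure D1:**
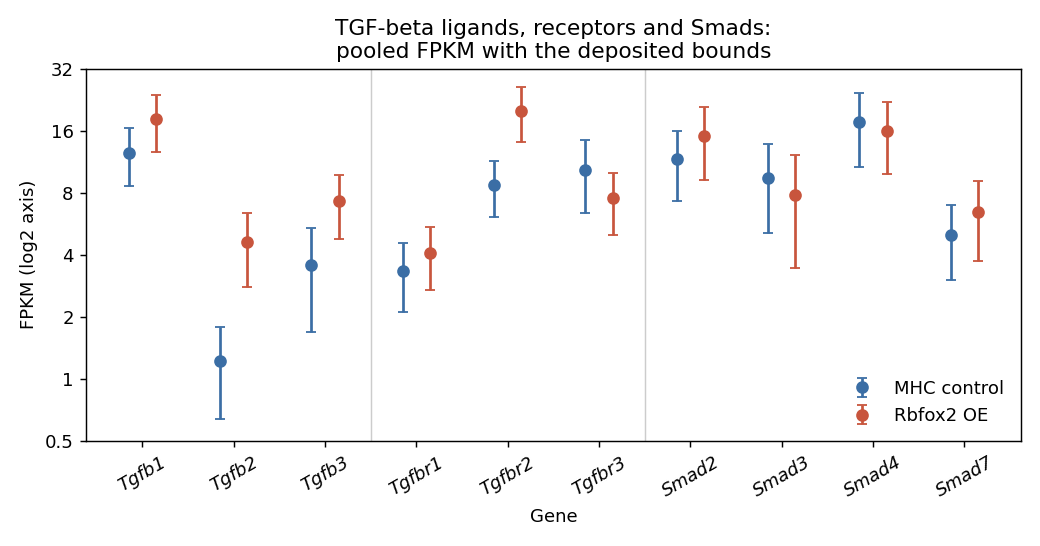
Pooled FPKM (log2 axis) of the 10 genes in MHC (blue) and Rbfox2 OE (red). Points are the authors' values and bars their lower and upper bounds; the bars of the groups are apart for Tgfb2 and Tgfbr2 and overlap for the other 8 genes.

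Of the ligands, Tgfb2 was called higher. Tgfb2 encodes the isoform needed for formation of the heart valves and outflow tract in the embryo. The gene (ENSMUSG00000039239) lies on GRCm38 chromosome 1, 186622792 to 186705989, minus strand, and is protein-coding. It stood at 1.22 FPKM in MHC, within bounds of 0.637 and 1.79, and at 4.59 FPKM in Rbfox2 OE, within bounds of 2.78 and 6.40. The whole interval of Rbfox2 OE lay above that of MHC, with a gap of 0.988 FPKM between them. The plain ratio was 3.78, and the log2 ratio was 1.34, with 0.44 from the nearest bounds and 2.18 from the farthest. Of the compared genes, 3.66% had a higher log2 ratio. This log2 ratio was the highest of the 10 members with 1 FPKM added, but the control level is close to that amount, and the value ranged from 0.63 with 5 FPKM added, below the 0.87 of Tgfbr2, to 1.83 with 0.1 FPKM added. An antisense gene, Gm29491, overlaps its start on the opposite strand and stood at 0.0787 FPKM in MHC and was listed at 0 in Rbfox2 OE.

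The 250 bases before the RefSeq start of Tgfb2 (GRCm38.p6, chr1:186705990-186706239, minus strand) are shown because this was 1 of the 2 members called. Capitals mark a TATA box (TATAAA), an E-box (CACGTG) and copies of CAGAC, a short sequence that Smad proteins can bind.
Tgfb2 promoter: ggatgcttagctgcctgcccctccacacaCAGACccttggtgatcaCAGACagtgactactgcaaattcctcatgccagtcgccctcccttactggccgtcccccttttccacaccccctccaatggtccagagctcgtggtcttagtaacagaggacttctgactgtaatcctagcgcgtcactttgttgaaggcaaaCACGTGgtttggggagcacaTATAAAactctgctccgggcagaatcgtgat
The TATA box ended 26 bases and the E-box 46 bases before the start, and CAGAC occurred 2 times. Searched on both strands of the same window in all 32851 RefSeq promoter entries, TATAAA was found in 12.4%, CACGTG in 6.02% and CAGAC in 42.2%, so the last of these is common. These are matches of letters, and no binding was measured.

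Tgfb1, the most abundant ligand and the isoform best known in fibrosis, differed less. Tgfb1 (ENSMUSG00000002603, chromosome 7, 25687002 to 25705077, plus strand) stood at 12.5 FPKM in MHC, within bounds of 8.58 and 16.5, and 18.2 FPKM in Rbfox2 OE, within bounds of 12.6 and 23.9. The upper bound of MHC reached 3.86 FPKM into the interval of Rbfox2 OE, and the log2 ratio was 0.51. No other annotated gene overlaps Tgfb1.

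Tgfb3, whose loss in mice gives cleft palate, had the smallest overlap, in FPKM, among the members whose bounds met. Tgfb3 (ENSMUSG00000021253, chromosome 12, 86056745 to 86079041, minus strand) stood at 3.56 FPKM in MHC, within bounds of 1.69 and 5.42, and 7.26 FPKM in Rbfox2 OE, within bounds of 4.77 and 9.75. The bounds overlapped by 0.653 FPKM. The plain ratio was 2.04 and the log2 ratio with 1 FPKM added was 0.86; with 0.1 FPKM added it was 1.01, past 2-fold. The protein-coding gene Ttll5 overlaps the end of Tgfb3 on the opposite strand, and its values ran the other way, at 5.92 FPKM in MHC and 1.66 FPKM in Rbfox2 OE. How the authors assigned fragments between these overlapping genes is not given in the sources used here, so the Tgfb3 values are uncertain to that extent.

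Together the ligand values summed to 17.3 FPKM in MHC and 30.1 FPKM in Rbfox2 OE. Since FPKM is scaled to transcript length, these levels can be set beside each other within a group. Tgfb1 made up 72.4% of the ligand sum in MHC and 60.6% in Rbfox2 OE, Tgfb3 20.6% and 24.1%, and Tgfb2 7.03% and 15.3%. The Tgfb1 level was 10.3 times that of Tgfb2 in MHC (4.78 to 25.8 from the bounds) and 3.97 times in Rbfox2 OE (1.97 to 8.58). The ranges of this ratio overlapped between the groups. Within each group the bounds of Tgfb1 lay above those of both other ligands.

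**Figure D2:**
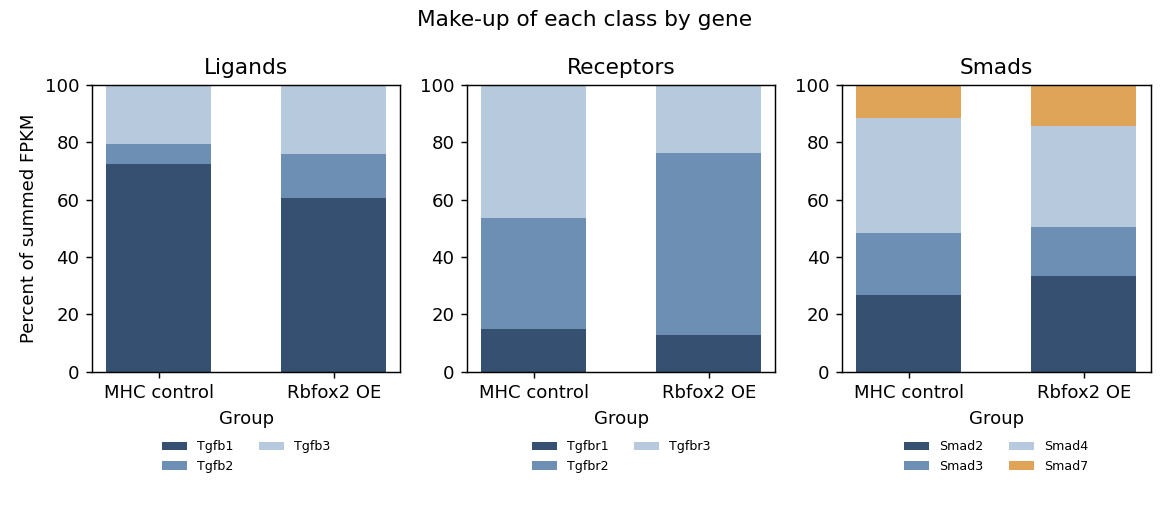
Share of each gene (percent) in the FPKM summed over the ligands, the receptors and the Smads, for MHC and Rbfox2 OE; each bar adds to 100. Tgfbr2 takes 38.8% of the receptor sum in MHC and 63.3% in Rbfox2 OE.

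Of the receptors, Tgfbr2 was called higher. Tgfbr2 encodes the type II receptor, the kinase that binds the ligand first. The gene (ENSMUSG00000032440) lies on chromosome 9, 116084293 to 116175360, minus strand, and overlaps no other annotated gene. It stood at 8.70 FPKM in MHC, within bounds of 6.07 and 11.3, and at 20.0 FPKM in Rbfox2 OE, within bounds of 14.1 and 25.9. The intervals were 2.78 FPKM apart, and their half-widths, 30.3% and 29.5% of the value, were the 2 narrowest among the members. The plain ratio was 2.30 and the log2 ratio 1.12, with 0.29 from the nearest bounds and 1.93 from the farthest. Of the compared genes, 5.48% had a higher log2 ratio. With 5 FPKM added the log2 ratio was 0.87, under 2-fold.

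The 250 bases before the RefSeq start of Tgfbr2 (GRCm38.p6, chr9:116175364-116175613, minus strand) are shown beside those of Tgfb2, as the 2 genes were called in the same direction. The same motifs are in capitals.
Tgfbr2 promoter: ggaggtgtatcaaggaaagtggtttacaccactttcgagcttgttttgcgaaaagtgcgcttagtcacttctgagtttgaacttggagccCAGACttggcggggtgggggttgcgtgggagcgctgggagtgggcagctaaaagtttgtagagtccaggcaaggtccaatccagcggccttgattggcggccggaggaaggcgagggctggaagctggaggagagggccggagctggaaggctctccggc
This window held 1 copy of CAGAC and neither of the other motifs, so what it has in common with the Tgfb2 window, among the letters searched, is a sequence found in 42.2% of promoter entries. The palindrome GTCTAGAC, a stronger Smad site, was in neither window and in 0.167% of all entries, and the AP-1 site TGANTCA was in neither and in 6.75%. On the strand that is not printed, the window of Tgfb2 also held TGACG, part of the CRE site bound by ATF and CREB factors. This was in 17.8% of entries, with both strands searched. On the printed strand it reads cgtca and is left in lower case. Among the uncalled members with a promoter entry, Tgfbr1 also held 1 copy of CAGAC, and Tgfb1 and Smad3 held none.

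Tgfbr1, the type I receptor that signals to the Smads, had the lowest receptor level in both groups. Tgfbr1 (ENSMUSG00000007613, chromosome 4, 47353222 to 47414931, plus strand) stood at 3.34 FPKM in MHC, within bounds of 2.12 and 4.55, and 4.08 FPKM in Rbfox2 OE, within bounds of 2.70 and 5.45. Most of each interval was shared, and the log2 ratio was 0.23. Tgfbr3, the co-receptor betaglycan, had the lowest log2 ratio of the 10 members. Tgfbr3 (ENSMUSG00000029287, chromosome 5, 107106570 to 107289629, minus strand) stood at 10.4 FPKM in MHC, within bounds of 6.35 and 14.4, and 7.51 FPKM in Rbfox2 OE, within bounds of 5.02 and 10.01. Its bounds overlapped by 3.66 FPKM, and the log2 ratio was -0.42.

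The values of Tgfbr2 and Tgfbr3 lay on opposite sides of no difference, though the bounds of Tgfbr3 overlapped between the groups. By value alone, the order of the receptor levels was not the same in the groups. In MHC Tgfbr3 stood above Tgfbr2, at 46.3% and 38.8% of a receptor sum of 22.4 FPKM, with overlapping bounds. In Rbfox2 OE Tgfbr2 made up 63.3% of a sum of 31.6 FPKM, and its bounds lay above those of Tgfbr3, at 23.8%. The level of Tgfbr2 was 0.840 times that of Tgfbr3 in MHC (0.422 to 1.78 from the bounds) and 2.67 times in Rbfox2 OE (1.41 to 5.17). Against Tgfbr1, the level of Tgfbr2 was 2.61 times in MHC (1.33 to 5.34) and 4.91 times in Rbfox2 OE (2.59 to 9.59). A ratio within a group does not depend on how the groups were scaled, but the ranges from the bounds overlapped between the groups for all 11 ratios computed among the members.

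As a class the Smads differed least, with log2 ratios between -0.24 and 0.35. Smad2 and Smad3 encode the Smads that TGFBR1 phosphorylates. Smad2 (ENSMUSG00000024563, chromosome 18, 76241580 to 76310963, plus strand) stood at 11.6 FPKM in MHC, within bounds of 7.27 and 15.9, and 15.1 FPKM in Rbfox2 OE, within bounds of 9.22 and 20.9, a log2 ratio of 0.35. Smad3 (ENSMUSG00000032402, chromosome 9, 63646767 to 63757994, minus strand) stood at 9.41 FPKM, within bounds of 5.09 and 13.7, and 7.80 FPKM, within bounds of 3.44 and 12.2, a log2 ratio of -0.24. The values of this pair lay on opposite sides of no difference, and each difference was smaller than the half-width of either interval. Smad3 in Rbfox2 OE had the widest relative interval of the members, at 55.9% of its value.

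Smad4, the shared partner of the phosphorylated Smads, was the most abundant member in MHC. Smad4 (ENSMUSG00000024515, chromosome 18, 73639009 to 73703780, minus strand) stood at 17.5 FPKM in MHC, within bounds of 10.6 and 24.5, and 15.9 FPKM in Rbfox2 OE, within bounds of 9.87 and 22.0. Its log2 ratio of -0.13 became 0.016 when the groups were rescaled without mitochondrial genes and the 10 most abundant genes, so it has no fixed direction. Smad7, the inhibitory Smad, stood at 5.01 FPKM in MHC, within bounds of 3.00 and 7.01, and 6.44 FPKM in Rbfox2 OE, within bounds of 3.73 and 9.15, a log2 ratio of 0.31. Smad7 (ENSMUSG00000025880) lies on chromosome 18, 75367529 to 75395935, plus strand. The level of Smad7 was 0.431 times that of Smad2 in MHC and 0.427 times in Rbfox2 OE, and the 4 Smads summed to 43.6 FPKM and 45.3 FPKM.

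**Figure D3:**
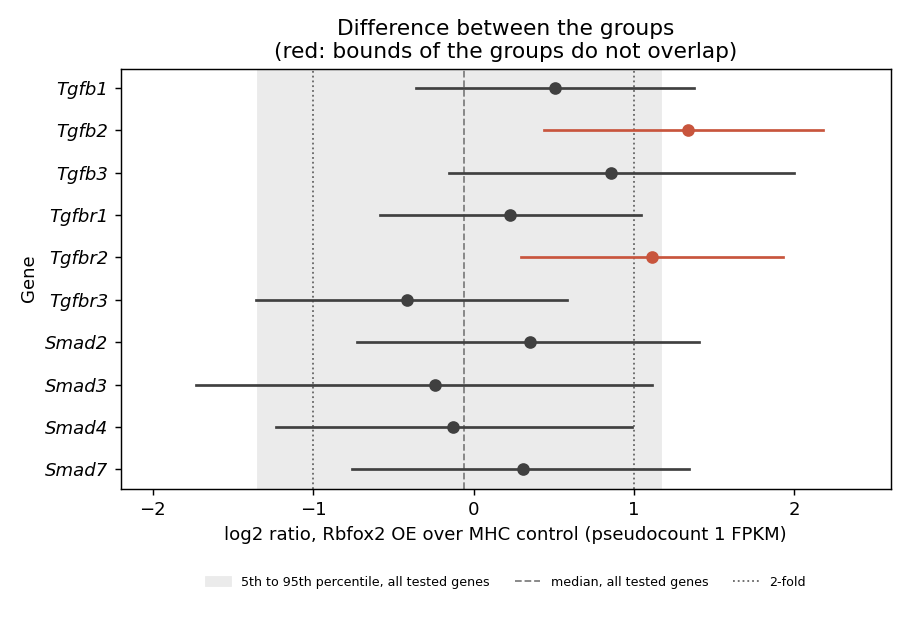
Log2 of Rbfox2 OE over MHC with 1 FPKM added (points) and the range from the nearest to the farthest pair of bounds (lines) for the 10 genes; red marks separate bounds, the dashed line the median of the compared genes (-0.06) and the shaded band their 5th to 95th percentile (-1.35 to 1.17). Tgfb2 lies beyond the band and Tgfbr2 just inside it.

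Ranked by level, the members in MHC ran from Smad4 through Tgfb1, Smad2, Tgfbr3, Smad3, Tgfbr2, Smad7, Tgfb3 and Tgfbr1 to Tgfb2. Neighbours in this order had overlapping bounds except at the end, where Tgfb2 lay below Tgfbr1. In Rbfox2 OE the order was Tgfbr2, Tgfb1, Smad4, Smad2, Smad3, Tgfbr3, Tgfb3, Smad7, Tgfb2 and Tgfbr1, and the bounds of all neighbours overlapped. Of the 45 pairs of members, 22 had separate bounds in MHC and 19 in Rbfox2 OE. Tgfbr2 moved from rank 6 to rank 1, and from above 51.8% to above 75.4% of the compared genes. Tgfb2 moved from above 6.95% to above 35.4% of them and so remained in the lower part of the distribution.

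RBFOX proteins bind the RNA sequence UGCAUG, also in 3' untranslated regions, so TGCATG was counted there in the longest GENCODE M21 coding transcript of each gene. It was present in 4 of the 10 members (Tgfb2, Tgfbr2, Smad3 and Smad4), beside 35.0% of 11051 compared genes. Over the length of these regions the members held 0.270 sites per kilobase and the compared genes 0.351. The sites of Tgfb2, Tgfbr2 and Smad3 are shown, since the first pair was called higher and Smad3 was not, with the motif in capitals and 30 bases in all, on GRCm38, minus strand.
Tgfb2 site (chr1:186622821-186622850): tttttaacacgaTGCATGtccggttttgtg
Tgfbr2 site 1 (chr9:116088475-116088504): gctactggtctcTGCATGgtcctaaccttg
Tgfbr2 site 2 (chr9:116086612-116086641): cacatgtgcacaTGCATGcctacacatgaa
Tgfbr2 site 3 (chr9:116085033-116085062): cctgcacatgtgTGCATGggcatgctctgt
Smad3 site 1 (chr9:63649037-63649066): agcccatgtttcTGCATGgatttcccatgg
Smad3 site 2 (chr9:63647735-63647764): cctgtgcagtcaTGCATGtgcctgagttgt
Smad3 site 3 (chr9:63647413-63647442): ggaacatgtggaTGCATGgctatcgccctg
Tgfbr2 and Smad3 each held 3 sites, and their log2 ratios were 1.12 and -0.24. The authors' locus for Tgfbr2 begins at 116087698, so its sites 2 and 3 lie outside the gene as they counted it. Tgfb1, Tgfb3, Tgfbr1, Tgfbr3, Smad2 and Smad7 held no TGCATG there, which says only that these letters are not in that stretch.

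The rest of the pathway was described from lists of its genes. Of 138 such genes found, 108 were compared, of which 31 were called higher and 6 lower, and their median log2 ratio was 0.32. Of the 31 called higher, 15 were in the list of known transcriptional targets and so are not parts of the signalling chain itself. Over all compared genes, 6.67% were called higher and 9.33% lower. Among genes that hold TGF-beta latent or release it, 8 of 19 were called higher and 1 lower, with a median of 1.01. The 1 lower, the integrin gene Itgb6, was not called on rescaling. Thbs1, thrombospondin 1, an activator of latent TGF-beta 1, stood at 2.45 FPKM in MHC, within bounds of 1.63 and 3.26, and 18.7 FPKM in Rbfox2 OE, within bounds of 13.1 and 24.3. The membrane protease gene Mmp14 stood at 4.06 and 15.9 FPKM, the TGF-beta-binding proteoglycan gene Bgn at 47.3 and 163 FPKM, and Emilin1, which restrains processing of the TGF-beta precursor, at 4.71 and 17.1 FPKM, all with separate bounds.

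Known transcriptional targets of the pathway were called higher in 15 of 24 cases and lower in none, with a median log2 ratio of 1.31. The share called higher over all compared genes was 6.67%, and this list was chosen with earlier results of these data known. For 1 of the 24, the transcription factor gene Junb, the values of 192 and 225 FPKM lie outside their own deposited bounds, which do not reach 2 FPKM. The bounds of Junb thus say nothing of a difference. The 15 are thus of 23 others, whose median log2 ratio was 1.41. The 4 largest differences were those of Timp1, a metalloproteinase inhibitor (log2 ratio 4.65, with a lower bound of 0 in MHC), Tgfbi, a matrix protein named for its induction by TGF-beta (2.42), the collagen gene Col3a1 (2.13) and Postn, periostin (2.04). Of the 24 targets 6 are also in the fibroblast or smooth muscle marker lists. Of the 17 that are neither there nor members, with Junb still counted, 10 were called higher, with a median of 0.85. Smad7 belongs to the target list, as do Skil and Pmepa1, feedback regulators singled out after their values were seen. Skil had a log2 ratio of 0.24 and Pmepa1 of 0.21, close to the 0.31 of Smad7 and likewise with overlapping bounds. Skil and Pmepa1 are also among the 14 inhibitors and corepressors compared, of which Tgif1 (1.07) and Bambi (0.81) were called higher and none lower.

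The related bone morphogenetic protein (BMP) and activin branch held 3 of 8 ligand genes called higher, namely Bmp10 (log2 ratio 2.38, also in the atrial marker list), Bmp4 (1.72) and Inhbb (1.30), and none lower. Beside these counts, 6.67% of all compared genes were called higher and 9.33% lower, and counts in lists this short were not tested. Of its 6 receptor genes compared, 0 were called in either direction, with a median of 0.26. Of the other Smads, 1 of 3 was called higher: Smad1, which carries BMP signals, stood at 3.71 FPKM in MHC, within bounds of 2.34 and 5.08, and 10.5 FPKM in Rbfox2 OE, within bounds of 7.23 and 13.8. Smad1 thus had a log2 ratio of 1.29, above that of each of the 4 Smads among the members. Among secreted antagonists Fstl1 was called higher (1.64) and Twsg1 lower (-1.48) of 4 compared.

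Inside the cell, 2 of 14 inhibitors and corepressors were called higher, Tgif1 (1.07) and the decoy receptor gene Bambi (0.81). Here too the shares over all compared genes were 6.67% higher and 9.33% lower, and counts in such short lists were not tested. Of 8 receptor partners, the endocytic adaptor Dab2 was called higher (1.65), and Zfyve9, the anchor that presents SMAD2 and SMAD3 to the receptor, was called lower (-0.98), a call that was lost on rescaling. None of 10 Smad partners and coactivators was called, with a median of 0.20. The kinases, adaptors and small GTPase of the non-Smad branch were the 1 pathway list with a negative median, -0.63, where 0 of 16 were called higher and 3 lower. These were Map2k6 (-1.44), Rock2 (-0.82) and Rock1 (-0.81). On centring at the median gene and on rescaling, Rock1 and Rock2 lost the call and the adaptor gene Tab2 gained one, which left 1 higher and 1 lower.

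**Figure D4:**
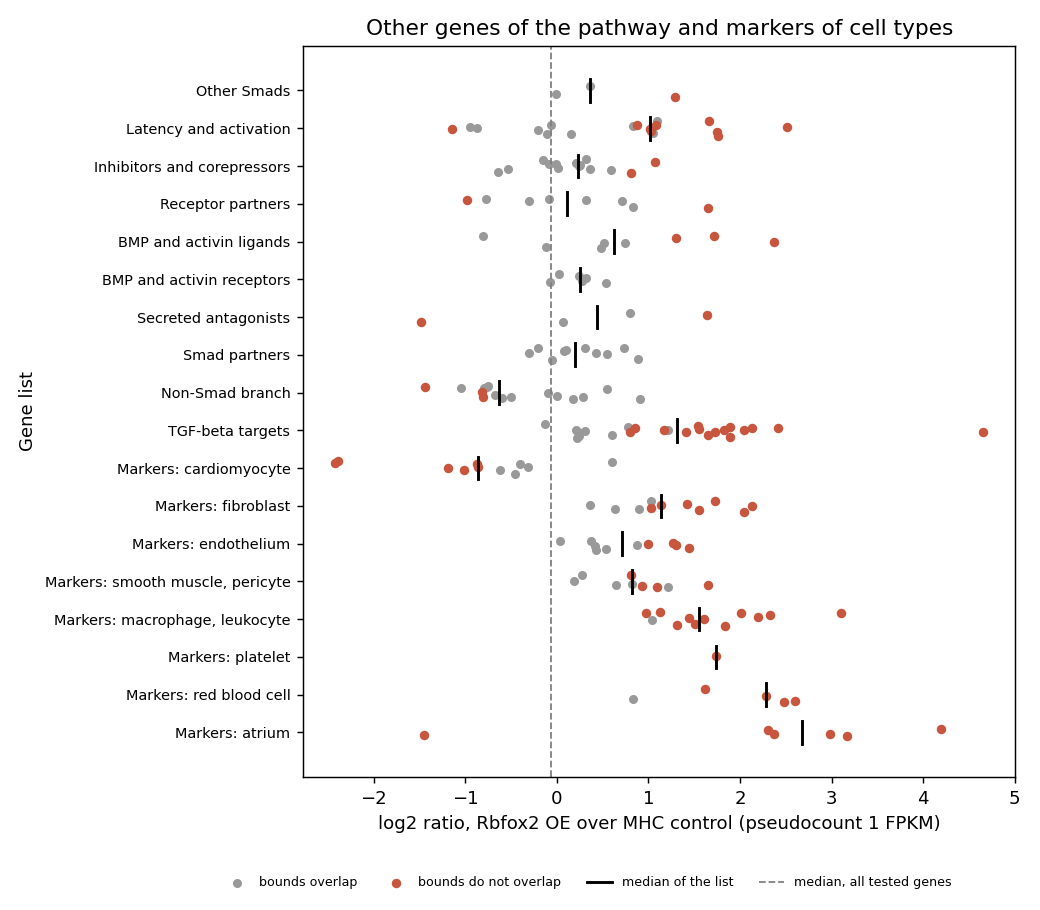
Log2 of Rbfox2 OE over MHC with 1 FPKM added for each compared gene of the other pathway lists and of 8 marker lists; red points have separate bounds, black bars are list medians and the dashed line is the median of all compared genes. The medians run from -0.87 (cardiomyocyte markers) to 2.68 (atrial markers).

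Markers of other cell types were also among the genes called higher in Rbfox2 OE. With 1 pooled value per group, whether they vary together with Tgfb2, Tgfbr2 or the targets cannot be told. The fibroblast and smooth muscle lists also share 6 genes with the targets. For the counts that follow, the shares over all compared genes were 6.67% called higher and 9.33% called lower. Fibroblast markers were called higher in 7 of 11 cases and summed to 242 FPKM in MHC and 575 FPKM in Rbfox2 OE, with Col1a1 at 6.19 and 22.8 FPKM. Macrophage and leukocyte markers were called higher in 11 of 12 cases and summed to 124 and 453 FPKM, with Cd68 at 3.77 and 20.9 FPKM. Endothelial markers were called higher in 4 of 10 cases (sums of 648 and 1151 FPKM) and smooth muscle and pericyte markers in 4 of 9 (154 and 345 FPKM). None of the markers in these 4 lists was at 0 in either group. Cardiomyocyte markers were called lower in 6 of 11 cases, 4 on rescaling, and summed to 63465 and 39832 FPKM. The sums of the fibroblast, endothelial, smooth muscle and macrophage markers were 2.37, 1.78, 2.24 and 3.66 times as high in Rbfox2 OE, beside plain ratios of 3.78 for Tgfb2 and 2.30 for Tgfbr2. Abundant genes weigh most in such sums, as Dcn at 301 FPKM in Rbfox2 OE. Plain ratios ran from 1.35 (Tcf21) to 4.58 (Col3a1) for fibroblasts and from 1.02 (Kdr) to 2.73 (Ly6c1) for endothelium. They ran from 1.20 (Cspg4) to 3.19 (Acta2) for smooth muscle and from 2.45 (Csf1r) to 11.0 (S100a8) for macrophages. The bounds of Tcf21, Kdr and Cspg4 overlapped between the groups. Atrial markers had the highest median log2 ratio of the marker lists, 2.68, with 5 of 6 called higher and 1 lower. The 1 lower was Kcnj3, with a log2 ratio of -1.45. The atrial markers summed to 269 FPKM in MHC and 3166 FPKM in Rbfox2 OE, 11.8 times as high. Most of the sum in Rbfox2 OE came from a single gene, Nppa, at 118 FPKM in MHC and 2178 FPKM in Rbfox2 OE. Red blood cell markers were called higher in 4 of 5 cases, with a median of 2.28, and summed to 56.6 and 295 FPKM, 5.22 times as high. Of 6 platelet markers 1 was high enough to compare, Pf4, at 7.34 and 26.9 FPKM. The part of these cells and chambers in the differences was not tested.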

How the data were processed

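The authors deposited FPKM values, and other columns with their lower and upper bounds in FPKM, as 1 pooled value per group and gene in a Cuffdiff table, per the file headers. The submitters' processing notes name GRCm38 (mm10), bcl2fastq 2.17.1.14, Trimmomatic, STAR 2.4.2a, Picard 1.119, HTSeq, DESeq2 and Cuffdiff 2.2.1. The annotation, the normalization mode and whether strand was used are not given in the sources used here. Depth is unknown, so no counting intervals were given.

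For 110 gene names with several rows the values and bounds were added up. Log2 ratios used a pseudocount of 1 FPKM, and genes averaging 1 FPKM or more over the groups (11697) were compared. Limma, planned for values per library, could not be used, and no p-values were computed. Status HIDATA, with no estimate, marked 30 genes in MHC and 26 in Rbfox2 OE, no member among them. Coordinates come from GENCODE M21, matched by identifier (99.2% of rows), and promoters from RefSeq (GRCm38.p6), where 5 members matched. The members and the lists were chosen with earlier results of these data known. They are pathway lists by role and markers of 8 cell types or chambers. Genes were named from each list among the up to 4 with separate bounds and the largest log2 ratios in size. Named outside this rule were Itgb6, Tab2, Junb, Skil, Pmepa1, Kcnj3, Myh6, Dcn, Tcf21, Kdr, Cspg4 and Csf1r. Genes of like pattern were not ranked, since 2 values per gene give no pattern. Calculations were tested on simulated data with Python 3.11.15 and pandas 2.3.3.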

Additional observations from a re-analysis of the deposited data

How the results depend on the processing

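No paired analysis was possible because each group has a single pooled column, and for the same reason no library could be left out in turn. How far the libraries of a group differ is unknown, and this limits each value above. All 40 log2 ratios of the members under other pseudocounts and scalings stayed inside the range given by the bounds. That range is wide, which makes this a weak check. Within it Tgfb2 ran from 0.63 to 1.83, and Smad4 changed sign. Rescaling without mitochondrial and top genes shifted Rbfox2 OE by 0.16 on the log2 scale, and with it, as with centring, Tgfb2 and Tgfbr2 remained the members with separate bounds. For Tgfb3 the rescaled lower bound of 5.31 FPKM stayed under the 5.42 FPKM of MHC. The 2 members past 2-fold became 0 with a pseudocount of 5, which shrinks ratios of low genes, 0 at 4-fold, 1 with a mean of at least 5 FPKM, which removes Tgfb2, and 3 with a pseudocount of 0.1. Of the other pathway genes, 31 were 2-fold higher and 4 lower. With a pseudocount of 5 these counts were 19 and 1, with 0.1 the lower count was 7, and on rescaling 2 genes, Twsg1 and Map2k6, had separate bounds below MHC in place of 6. List medians kept their sign in all 90 values computed; the platelet median fell to 0.19 without a filter, as genes near 0 entered.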
